A study of Mus musculus with 3 samples.

Results

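The C/EBP factors are a family of basic leucine zipper (bZIP) proteins, and the 6 genes described here are Cebpa, Cebpb, Cebpd, Cebpe, Cebpg and Ddit3, chosen by symbol from the 24421 gene entries of each count table. All 6 have an entry in every table. RNA was sequenced from 3 control libraries of bone marrow hematopoietic stem and progenitor cells (HSPCs), numbered by the replicate in their titles. The mice were C57BL/6, of genotype Cicflox/flox + tamoxifen, that is, with loxP sites in both Capicua alleles and treated with tamoxifen. The labels name no Cre driver for these mice, and give neither their age nor whether each library came from 1 animal or from a pool. The sorted cells lacked the lineage markers stained for, CD11b and Gr-1 of myeloid cells among them, and carried c-Kit and Sca-1. The study concerned 2 mouse groups, of which the other was not analysed here, so all values below are from controls and no comparison of genotypes is made.

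C/EBP proteins bind DNA as dimers held together by their leucine zippers, with each other and with other bZIP factors such as ATF4. In blood formation C/EBP-alpha commits stem and progenitor cells to the granulocyte and monocyte lineages, C/EBP-beta serves granulocyte production on demand, and C/EBP-epsilon acts late, when secondary granules form. C/EBP-gamma lacks an activation domain of its own and works through its partners, and CHOP, the product of Ddit3, is induced by ATF4 under endoplasmic reticulum stress and draws other C/EBP proteins away from their usual sites.

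Levels are given in CPM, the count of a gene scaled to the total of all gene counts in its library. These totals were between 25097769 and 30718562 per library. A count of 0 allows from 0.0977 to 0.120 CPM (3 counts in a library), and these limits and the intervals below cover counting error only, since amplified reads are not independent molecules. Kit, which encodes the c-Kit of the sort, had 904, 809 and 766 CPM in libraries 1, 2 and 3, and Ly6a, which encodes Sca-1, had 95.5, 99.3 and 114. Of 14 stem cell markers all 14 reached a mean of 1 CPM, against 53.1% of all gene entries. So did all 12 granulocyte-monocyte progenitor and all 9 B cell markers, but only 4 of 9 T and NK cell markers. Some defining genes of mature cells were near or at 0, with 0, 0 and 2 counts of the T cell receptor chain gene Cd3e, 6, 2 and 2 of the macrophage gene C1qa, and none of Hba-a1, Hbb-bs, Col3a1, Adipoq or Marco. Other genes of these lists were higher, with 75, 29 and 42 counts of C1qb and 870, 539 and 1067 of Cd68. Cd4 had 467, 126 and 201 counts. Of 10 macrophage and monocyte markers 6 reached 1 CPM, as did 8 of 10 mature neutrophil markers. Library 1 stood apart, with 11.8% of gene counts on the ribosomal RNA precursor Rn45s against 8.20% and 7.91% in libraries 2 and 3. Nothing in the labels says that the libraries came from separate mice, so every test below measures only the spread between these libraries, which may be technical.

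Cebpg was by far the most abundant C/EBP transcript of these HSPCs, Cebpa and Ddit3 lay in the middle, and Cebpd, Cebpb and Cebpe were low, the last pair at 9 to 32 counts per library. For comparison between genes, CPM were divided by the kilobases (kb) of annotated exons. Cebpg averaged 20.9 ± 1.78 CPM per kb, Cebpa 7.26 ± 2.96, Ddit3 4.31 ± 0.420, Cebpd 0.616 ± 0.300, Cebpb 0.506 ± 0.176 and Cebpe 0.343 ± 0.112 CPM per kb (SD, n = 3 libraries each). The median over the 17126 genes with a count and a known length was 3.63 CPM per kb. Cebpg was above 87.3% of them, Cebpa above 64.8% and Ddit3 above 53.3%, while Cebpd, Cebpb and Cebpe were above 28.4%, 26.7% and 23.3%. A mean of at least 1 CPM was reached by 4 of the 6 genes, as it was by 53.1% of all gene entries.

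In the order of levels per kb, Cebpg stood apart from Cebpa in every library, and Ddit3 from Cebpd. The lowest Cebpg value was 19.5 CPM per kb, against a highest Cebpa value of 9.13. Cebpa and Ddit3 overlapped, since in library 1 Cebpa was at 3.84 and Ddit3 at 4.67 CPM per kb, the reverse of libraries 2 and 3. With the longest transcript as length, Ddit3 averaged 7.61 CPM per kb and passed Cebpa. Cebpd, Cebpb and Cebpe overlapped with their neighbours, so their order is not set by these libraries. Without library 2, Cebpb came before Cebpd.

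**Figure D1:**
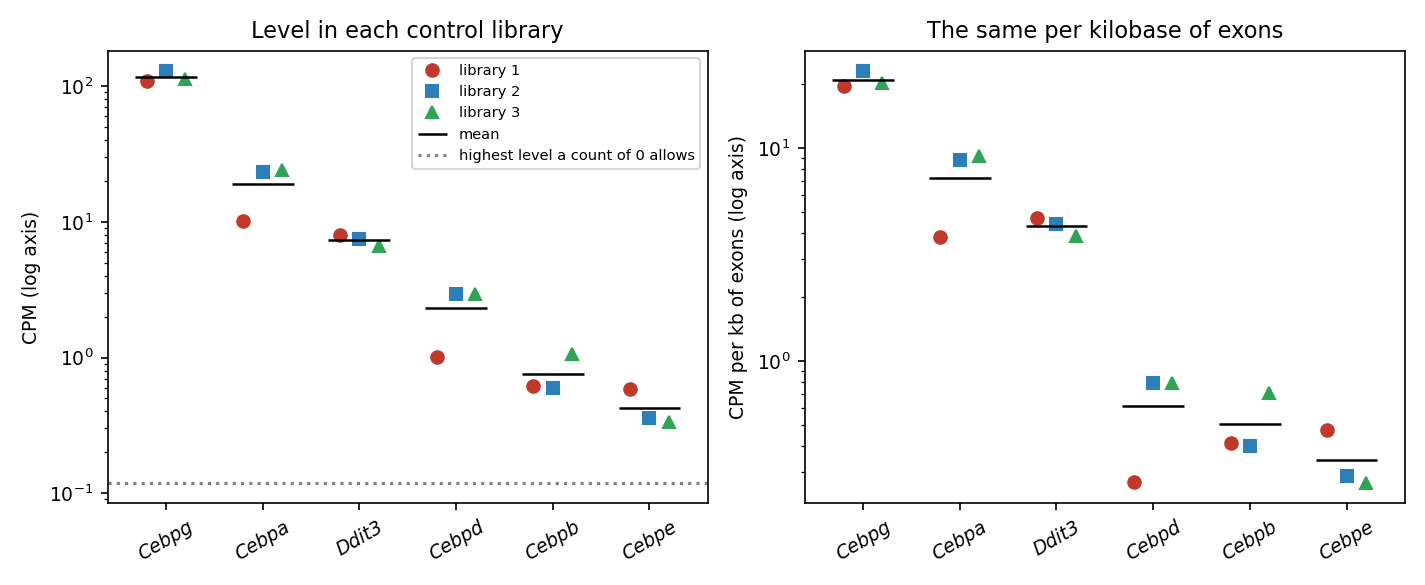
Level of each C/EBP gene in the 3 control libraries, as CPM (left) and as CPM per kb of annotated exons (right), both on log axes, with the mean as a bar and the highest level that a count of 0 allows as a dotted line. Cebpg sits above all others in every library, and library 1 lies lowest for Cebpa and Cebpd.

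Cebpg, the partner factor without an activation domain, held most of the family's reads. It had 3373, 3234 and 3425 counts, or 109.8, 129 and 114 CPM, in libraries 1, 2 and 3, a mean of 118 ± 10.0 CPM. The 3 libraries were close, library 2 being the highest. Of the summed counts of the 6 genes, Cebpg took 84.4% in library 1 (exact Clopper-Pearson 95% interval 83.2 to 85.5%), 78.8% in library 2 (77.5 to 80.1%) and 76.5% in library 3 (75.2 to 77.7%). Per kb of exons these shares were 66.9%, 61.0% and 57.9%, since Cebpg has the longest exons of the family at 5621 bases. Its share was thus largest in library 1, where Cebpa and Cebpd were lowest. Per kb Cebpg was higher than 21 of 30 other bZIP genes that were listed as possible partners.

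Cebpa, the factor of granulocyte and monocyte commitment, was lower in library 1 than in the others. It had 311, 582 and 723 counts, or 10.1, 23.2 and 24.1 CPM, a mean of 19.1 ± 7.81 CPM (SD, n = 3), and of 23.6 CPM without library 1. Libraries 2 and 3 were nearly level. On the log2(CPM + 0.5) scale, library 1 lay 1.18 below the mean of the others (a difference of -1.18). At least 2-fold below the others in library 1 were 2.73% of the 12965 genes with a mean of 1 CPM or more, and 2 of the 4 members among these genes, Cebpa and Cebpd. No member lay 2-fold above there (1.52% of genes). None lay 2-fold below or above in library 2 (0.787% and 1.27%) or in library 3 (1.00% and 1.02%). Within the family, Cebpa took 7.78% of counts in library 1 (95% interval 6.97 to 8.65%), 14.2% in library 2 (13.1 to 15.3%) and 16.1% in library 3 (15.1 to 17.3%), values that do not depend on how libraries are scaled. For every count of Spi1, which encodes the myeloid factor PU.1, there were 0.151 Cebpa counts in library 1, 0.341 in library 2 and 0.343 in library 3.

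Cebpa and Cebpg lie near each other on chromosome 7, with their start sites 62720 bases apart and facing away from each other. Their promoters are shown because the neighbours differed so much in level and in evenness between libraries. The sequences run from 250 bases before the RefSeq start to 50 bases after it on GRCm38.p6, at chr7:35119043-35119342 on the plus strand for Cebpa and chr7:35056517-35056816 on the minus strand for Cebpg, and capitals mark the TATAAA box and the CCAAT box, which reads as ATTGG when on the other strand.
Cebpa: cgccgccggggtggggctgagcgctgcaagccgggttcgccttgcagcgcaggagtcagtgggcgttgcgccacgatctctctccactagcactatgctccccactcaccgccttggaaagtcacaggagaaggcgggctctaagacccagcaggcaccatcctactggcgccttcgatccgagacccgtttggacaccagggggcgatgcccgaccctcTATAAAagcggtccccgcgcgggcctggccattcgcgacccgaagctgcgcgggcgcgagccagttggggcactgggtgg
Cebpg: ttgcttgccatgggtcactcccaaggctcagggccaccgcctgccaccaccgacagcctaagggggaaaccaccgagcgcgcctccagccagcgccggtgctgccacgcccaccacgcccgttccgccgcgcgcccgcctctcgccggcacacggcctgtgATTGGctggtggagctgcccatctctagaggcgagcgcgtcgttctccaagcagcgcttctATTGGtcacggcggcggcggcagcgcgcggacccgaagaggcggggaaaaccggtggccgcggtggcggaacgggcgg
The Cebpa window holds TATAAA beginning at position -30 and no CCAAT. The Cebpg window holds CCAAT on the reverse strand at positions -89 and -28 and no TATAAA. Of 32851 RefSeq promoters of the same length, 13.6% hold TATAAA and 37.4% hold CCAAT on either strand. Of the 4 promoters of the family in the RefSeq table, that of Cebpb also holds TATAAA and that of Ddit3 also holds CCAAT. None of the 4 holds the C/EBP palindrome TTGCGCAA, its looser form TTNNGCAA (10.8% of all promoters), the C/EBP-ATF composite TGATGCAA, or any of the 4 Capicua octamers TGAATGAA, TGAATGGA, TCAATGAA and TCAATGGA. A match or its lack describes only the letters in these windows.

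Cebpd, a factor induced by cytokines and inflammation in many tissues, was low but showed the same order of libraries. It had 31, 74 and 89 counts, or 1.01, 2.95 and 2.96 CPM, a mean of 2.31 ± 1.12 CPM (SD, n = 3), and of 2.96 CPM without library 1. Library 1 again lay lowest, by a log2 difference of -1.20 from the mean of the others. Of 142 listed genes with a mean of 5 CPM or more, Cebpa was nearest to Cebpd in its deviations over the 3 libraries, at a Euclidean distance of 0.03 on the log2(CPM + 0.5) scale. This nearness depends on the 0.5 that was added. With 0.1 added instead, the library 1 differences were -1.46 for Cebpd and -1.21 for Cebpa. With 1 added they were -0.98 and -1.15. For Cebpa itself the nearest of the listed genes were Tef, a bZIP factor of the PAR group, Ppp1r15a, a phosphatase subunit gene of the stress response, and Hspa5, at distances of 0.18, 0.21 and 0.23. With only 3 libraries such distances are loose, and 44 of all genes at 5 CPM or more lay at least as near to Cebpa as Tef. For Cebpg the nearest were Ctnnal1 at 0.03, and Eif2ak4 and Cd79b at 0.05. Of all genes at 5 CPM or more, 95, 209 and 224 others lay at least as near to Cebpg as these.

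The remaining members were low or even. Ddit3, which encodes CHOP, had 246, 189 and 198 counts, or 8.01, 7.53 and 6.59 CPM, a mean of 7.38 ± 0.720 CPM. Cebpb had 19, 15 and 32 counts, or 0.619, 0.598 and 1.07 CPM, with library 3 the highest. Cebpe had 18, 9 and 10 counts, or 0.586, 0.359 and 0.333 CPM, with library 1 the highest. The 95% intervals of the family shares of Cebpe overlapped between all libraries, the lower bound in library 1 being 0.267% and the upper bounds in libraries 2 and 3 being 0.416% and 0.410%. The intervals of Cebpb overlapped likewise. Overlap of intervals is not a test of a difference, so whether Cebpe or Cebpb differed between libraries was not settled at this depth.

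**Figure D2:**
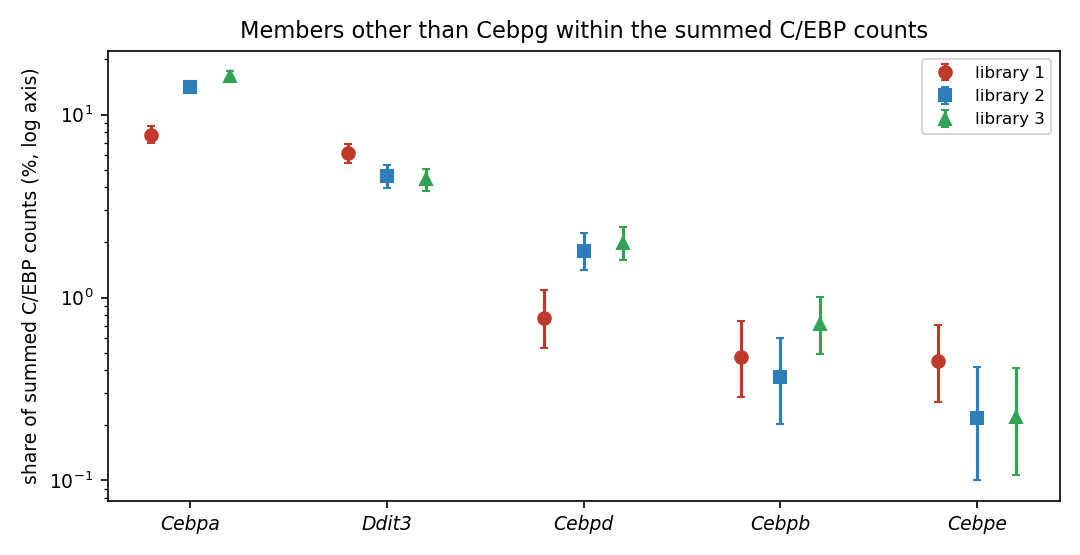
Share of the summed counts of the 6 C/EBP genes held by each gene other than Cebpg, in percent on a log axis, for each control library with exact Clopper-Pearson 95% intervals. Cebpa holds 7.78% in library 1 against 14.2% and 16.1% in libraries 2 and 3, and the intervals of Cebpe overlap between all libraries.

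The counts of Cebpa, Cebpd and Cebpg differed between the libraries beyond read counting, and those of Ddit3 did not pass the test. In a chi-square test across all genes at 1 CPM or more, 82.6% of 12965 genes passed, so 3 of 4 members tested is close to the background. The Benjamini-Hochberg adjusted p was 2.54e-41 for Cebpa, 1.55e-07 for Cebpd, 3.20e-10 for Cebpg and 0.136 for Ddit3. Without library 1 the adjusted chi-square p of Cebpa was 0.595 and that of Cebpd 0.982, so for these genes the difference rested on library 1. That of Cebpg rested on library 2, without which it was 0.157. Cebpb and Cebpe, below 1 CPM, were not in the chi-square test.

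None of the 4 members was more variable than genes of its own abundance after adjustment. In edgeR's quasi-likelihood fit, an F test of each gene's dispersion over the trend called 0.00771% of the 12965 genes, a single gene, Elane. Cebpa had an unadjusted p of 0.0151 and an adjusted p of 0.982, and was the 1 member under 0.05 before adjustment. That level was reached by 588 genes, or 4.54% of all. The adjusted p was 0.982 for Cebpd, 0.992 for Cebpg and 0.999 for Ddit3 in the same edgeR fit. DESeq2 marked none of the 4 as a dispersion outlier. Without the minimum of 1 CPM, the edgeR adjusted p was 0.997 for Cebpb and 0.999 for Cebpe.

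**Figure D3:**
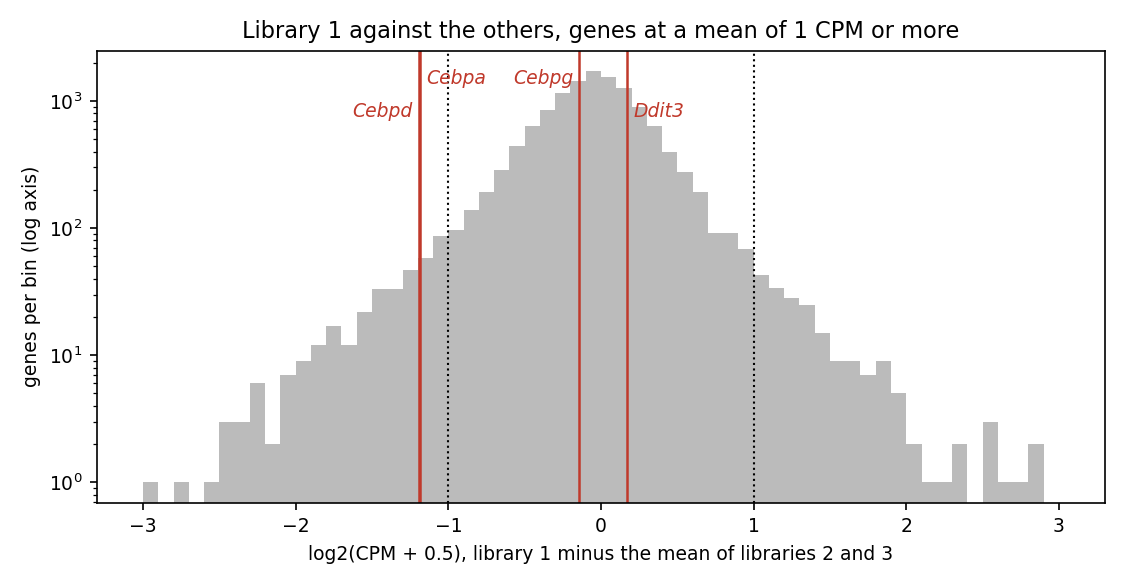
Histogram of the log2(CPM + 0.5) difference between library 1 and the mean of libraries 2 and 3 for the 12965 genes at a mean of 1 CPM or more (number of genes per bin on a log axis, values past the ends placed in the end bins), with the 4 C/EBP genes tested as red lines and the 2-fold bounds as dotted lines. Cebpa at -1.18 and Cebpd at -1.20 lie in the lower tail, and Cebpg at -0.14 and Ddit3 at 0.17 near the middle.

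Genes of early myeloid cells shared the low library 1 with Cebpa in part. Of 16 listed targets of C/EBP-alpha, all 16 reached 1 CPM, against 53.1% of all gene entries. In library 1, 5 of them lay at least 2-fold below the others, against 2.73% of all genes. This list and those below were chosen with earlier results of these data known, so such shares are descriptions and not tests. Mpo, the myeloperoxidase of primary granules, had 683, 1544 and 2403 CPM in libraries 1, 2 and 3. Elane, the neutrophil elastase gene, had 24.7, 112 and 239.8 CPM, an even wider spread, lowest in library 1 and highest in library 3. For every Cebpa count there were 2.44, 4.83 and 9.96 Elane counts in libraries 1, 2 and 3, and 67.4, 66.6 and 99.8 Mpo counts, so that Elane differed more than Cebpa throughout and Mpo was level with it between libraries 1 and 2. The serine protease gene Ctsg had 39.8, 96.9 and 148 CPM, and Csf1r, the macrophage growth factor receptor gene, 15.5, 28.0 and 35.3 CPM. Other targets were even or ran the other way, with 284, 243 and 231 CPM for the G-CSF receptor gene Csf3r, 303, 229 and 264 for the lysozyme gene Lyz2, and 2.90, 2.15 and 2.93 for Klf5. The low Id2, an inhibitor of basic helix-loop-helix factors, was highest in library 1, at 2.99 CPM against 1.55 and 2.10. In all, 9 of the 16 were lowest in library 1, against 44.3% of all genes, and their median log2 difference of library 1 from the others was -0.27, against -0.05 over all genes. Only Elane passed the edgeR variability test, and 8 of the 16 had an unadjusted p under 0.05, against 4.54% of all genes.

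The listed targets of C/EBP-epsilon, not all of them secondary granule genes, leaned the other way. Some, Ngp and S100a9 among them, are also in the list of mature neutrophil markers below. Of 15 listed targets 12 reached 1 CPM, against 53.1% of all gene entries. Of the 12, 7 were highest in library 1, against 31.9% of all genes. None of the 12 was lowest there, against 44.3% of all genes. In library 1, 6 of them lay at least 2-fold above the others, against 1.52% of all genes. Ngp, a granule protein gene, had 80.1, 15.4 and 34.1 CPM in libraries 1, 2 and 3, and the calcium-binding S100a9 had 35.2, 9.76 and 24.5 CPM. Library 2 was the lowest for both. Itgam, which encodes the CD11b of the sort, and Padi4, the enzyme of histone citrullination in neutrophils, were even, at 141, 128 and 144 CPM and at 44.8, 50.2 and 42.1 CPM. The formyl peptide receptor genes Fpr1 and Fpr2 had at most 7 counts in a library. None of the list passed the edgeR variability test, and 6 of the 12 had an unadjusted p under 0.05, against 4.54% of all genes.

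**Figure D4:**
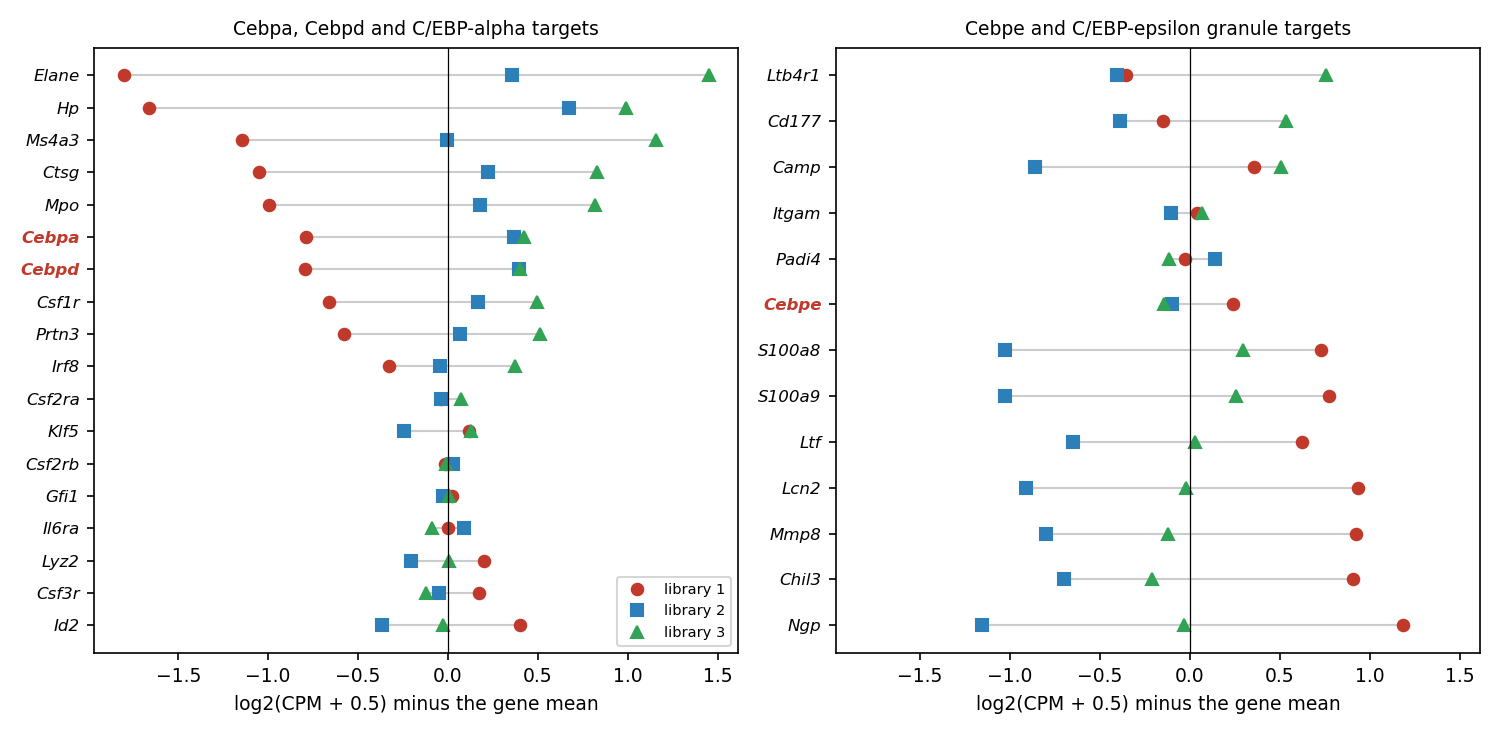
Deviation of log2(CPM + 0.5) from the gene's own mean in each control library, for Cebpa, Cebpd and the listed C/EBP-alpha targets (left) and for Cebpe and the listed C/EBP-epsilon targets (right) that average 1 CPM or more, with Cebpe itself lower. Library 1 lies left for Cebpa, Cebpd, Mpo and Elane, and right for Ngp and S100a9.

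Markers of other cells differed between the libraries as well. The summed level of 12 granulocyte-monocyte progenitor markers was 1446, 2558 and 3745 CPM in libraries 1, 2 and 3. Mpo alone was 683, 1544 and 2403 CPM of it. Some of the 12, Mpo, Elane, Ctsg, Csf1r and Csf3r among them, are also among the C/EBP-alpha targets above. Of the 12, 10 were lowest in library 1 and highest in library 3, against 22.8% of all genes. These lists too were chosen with earlier results of the data known, so such shares are not tests. The summed level of 10 mature neutrophil markers was 208, 72.9 and 129 CPM, highest in library 1, where Cebpa was lowest. Retnlg and Mmp9, which mark late neutrophils, had 65, 0 and 15 and 47, 0 and 14 counts. Of 7 mast cell and basophil markers 4 were at least 2-fold lower in library 1, against 2.73% of all genes. The sum of the 7 was 186, 189.9 and 176 CPM, but most of it was Gata2 and Cpa3, and it does not show the others. Gata2, also among the stem cell markers, had 145, 128 and 111 CPM, and Cpa3 had 29.1, 30.2 and 28.0. The 10 macrophage and monocyte markers summed to 56.1, 59.1 and 80.2 CPM, and the 14 stem cell markers to 2889, 2597 and 2375 CPM. Markers of the megakaryocyte and erythroid (12), B cell (9), T and NK cell (9) and stromal (9) lineages reached 1 CPM in 9, 9, 4 and 4 cases. The share over all gene entries was 53.1%. The sums of these 4 marker lists were 604 to 643, 121 to 134, 104 to 124 and 112 to 129 CPM. The part of any of these cells in the Cebpa and Cebpd values was not tested, and in bulk RNA fewer cells of a type and less RNA per cell cannot be told apart.

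The members differ in base composition and position. Cebpa, Cebpb and Cebpe are rich in G and C, at 62.6%, 67.2% and 61.5% of the longest transcript, above 99.1%, 99.9% and 98.5% of genes at 1 CPM or more. Cebpd, Ddit3 and Cebpg have 51.6%, 45.6% and 43.3%. The 292 other genes within 2 percentage points of Cebpa had a median log2 difference of library 1 from the others of -0.03, and 3.77% of them lay at least 2-fold below, against 2.73% of all genes. Cebpb overlaps exons of Tmem189 on the opposite strand over 312 bases, or 20.7% of its exons, and Cebpd overlaps exons of Spidr over 562 bases, or 15.0%. Ddit3 shares 68 bases with Mars, the methionyl-tRNA synthetase gene. No source used here gives the strand setting of the counting, and reads in these stretches could have been dropped as ambiguous or given to the other gene, and the Cebpb and Cebpd levels are uncertain to that extent. Cebpa (chromosome 7, 35119293 to 35121928), Cebpb (chromosome 2, 167688915 to 167690418) and Cebpd (chromosome 16, 15887286 to 15891031) each have 1 continuous block of exons in GENCODE M21 on GRCm38. Cebpg (chromosome 7, 35046422 to 35056573) has 3 blocks, Ddit3 (chromosome 10, 127290774 to 127296288) has 4 and Cebpe (chromosome 14, 54710360 to 54712174) has 2. Cebpz and Cebpzos, whose symbols resemble the family but which are not bZIP genes, were at 131 ± 6.95 and 3.40 ± 0.406 CPM and are counted separately.

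Stress response genes around CHOP were often lowest in library 1. Of 23 listed genes of the integrated stress response 20 reached 1 CPM, against 53.1% of all gene entries. Of these 20, 13 were lowest in library 1, against 44.3% of all genes. It was there that Ddit3 was at its highest, with 8.01 CPM, but its counts did not pass the chi-square test between libraries (adjusted p 0.136). Atf4, the factor that induces Ddit3, had 149, 131 and 170.2 CPM in libraries 1, 2 and 3. Ppp1r15a, which encodes the GADD34 phosphatase subunit, had 21.6, 41.0 and 51.4 CPM and was the 1 gene of the 20 at least 2-fold lower in library 1, against 2.73% of all genes. Eif2s1, the alpha subunit of the initiation factor that stress kinases phosphorylate, Psat1, an enzyme of serine synthesis, and the kinase gene Eif2ak2 were at 198 ± 25.5, 186 ± 26.7 and 169 ± 14.7 CPM. Atf3, a stress-induced bZIP gene, had 0, 4 and 6 counts, and Fgf21 had none. None of the list passed the edgeR variability test, and 2 of the 20 had an unadjusted p under 0.05, against 4.54% of all genes.

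Genes of the unfolded protein response were mostly lowest in library 1, by less than 2-fold. Of 16 measured genes all 16 reached 1 CPM, against 53.1% of all gene entries. Of the 16, 14 were lowest in library 1, against 44.3% of all genes. Their median log2 difference of library 1 from the others was -0.30. Hspa5, the chaperone BiP, had 334, 595 and 694.5 CPM, and Hsp90b1, the chaperone GRP94, had 804, 1176 and 1285 CPM. The lectin chaperone genes Canx and Calr were at 657 ± 107 and 340 ± 73.9 CPM, and the lowest of the list, Ero1lb and Sdf2l1, at 35.6 ± 5.19 and 24.3 ± 7.01 CPM. None of them passed the edgeR variability test, and 3 of the 16 had an unadjusted p under 0.05, against 4.54% of all genes.

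**Figure D5:**
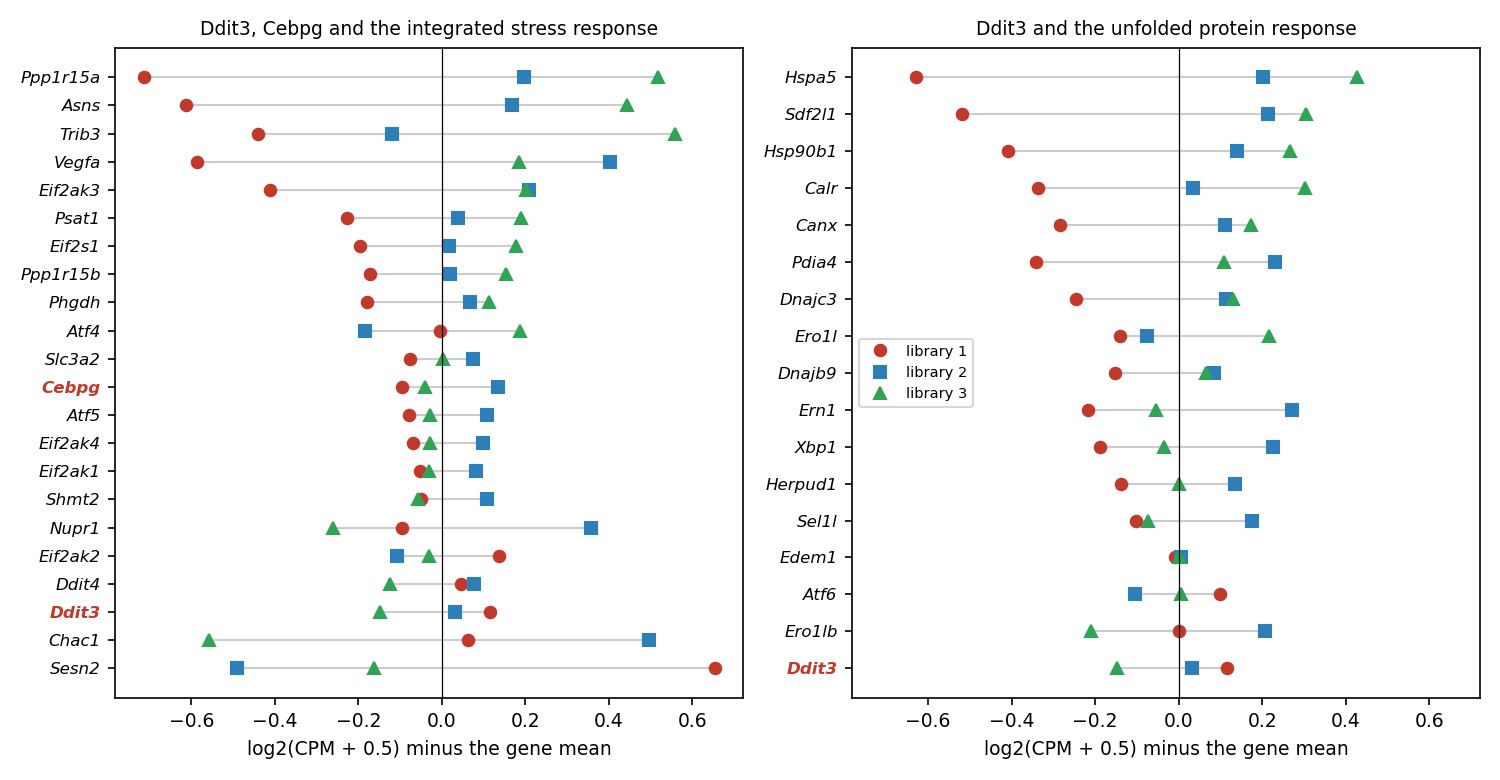
Deviation of log2(CPM + 0.5) from the gene's own mean in each control library, for Ddit3, Cebpg and listed genes of the integrated stress response (left) and for Ddit3 and listed genes of the unfolded protein response (right) that average 1 CPM or more. Library 1 lies left for Hspa5, Hsp90b1 and Ppp1r15a, and slightly right for Ddit3.

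The bZIP partners and the regulators of the family were well represented. Of 30 bZIP partners 26 reached 1 CPM, against 53.1% of all gene entries. The median of the 30 was 7.69 CPM per kb, against 3.63 over all genes with a count. The highest in CPM were Hlf, a stem cell factor of the PAR group, at 679 ± 110.2, the CREB and ATF family genes Atf7 at 372 ± 41.0, Atf2 at 287 ± 38.3 and Creb1 at 235 ± 9.13. The lowest were Fosl1 with 0, 1 and 6 counts and Atf3. Of the 26, 12 were lowest in library 1, against 44.3% of all genes, 9 were highest there, against 31.9%, and 3 lay at least 2-fold below, against 2.73%. Jun and Fos, of the AP-1 factors and chosen after their values were seen, were both lowest in library 1, at 65.2, 135 and 179 CPM and at 37.8, 82.3 and 125 CPM. None of the 26 passed the edgeR variability test, and 4 had an unadjusted p under 0.05, against 4.54% of all genes.

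Of 20 measured regulators of Cebpa or its protein 19 reached 1 CPM, against 53.1% of all gene entries. The median of the 20 was 12.1 CPM per kb. Runx1, a factor that activates Cebpa, was at 268, 271 and 292 CPM in libraries 1, 2 and 3, even where Cebpa was not. Myb and Myc, which favour growth over differentiation, were at 991 ± 16.4 and 553 ± 14.9 CPM. Trib1, which directs C/EBP-alpha to degradation, had 6.38, 9.32 and 15.7 CPM, while its relative Trib2 had 11.3, 15.7 and 9.39 CPM. Trib3 and Id1 were the lowest of the list, at 2.14 ± 0.969 and 0.326 ± 0.207 CPM. No regulator lay at least 2-fold below or above the others in library 1, against 2.73% and 1.52% of all genes. None passed the edgeR variability test, and 2 had an unadjusted p under 0.05, against 4.54% of all genes.

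Genes of the cytokine axis upstream of Cebpb and Cebpd were in part expressed. Of 17 genes of the IL-6, STAT3 and NF-kB axis 13 reached 1 CPM, against 53.1% of all gene entries. The median of the 17 was 3.51 CPM per kb, against 3.63 over all genes with a count. Stat3, Il1r1, the signalling receptor subunit gene Il6st and Nfkb1 were the highest, at 235 ± 12.7, 188 ± 16.6, 142 ± 4.07 and 125 ± 5.49 CPM. The acute phase genes Ptx3 and Saa3 had 0, 8 and 0 and 0, 0 and 2 counts. Of the cytokine genes, chosen after their values were seen, Tnf had 235, 78 and 140 counts in libraries 1, 2 and 3, Il6 had 1, 3 and 6 and Il1b had 0, 3 and 22. In library 1, 2 of the 13 lay at least 2-fold below the others, against 2.73% of all genes. There 1 lay at least 2-fold above, against 1.52%. None passed the edgeR variability test, and 3 had an unadjusted p under 0.05, against 4.54% of all genes.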

How the data were processed

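Per the labels, 10 ng of RNA per library was turned into double-stranded cDNA with poly(A) and random priming and amplified. The deposited values are unnormalized counts by gene symbol. The submitters' processing notes list, with no role, TopHat2 (version 2.0.9), HTSeq and DESeq2, and as build mm10. Gene model, strand setting and HTSeq version were not stated. The 92 ERCC and 5 HTSeq category entries were left out, the latter 59.7 to 65.6% of all entries. CPM used plain gene totals, and logs were log2(CPM + 0.5), so differences of low genes are understated. Libraries were compared by a chi-square test on counts and by edgeR 4.0.16 (intercept only, robust, TMM), both over genes averaging 1 CPM or more, Benjamini-Hochberg adjusted at 0.05 and checked on simulated counts. Lengths and positions came from GENCODE M21 (98.4% of symbols matched), promoters from RefSeq. Of 206 listed symbols 202 have an entry. The members and lists were chosen with earlier results of these data known. Named were the members, the 4 highest and 2 lowest of each list (not all are printed for cell markers), genes past the edgeR test and those nearest in pattern. Cd3e, Ctsg, Csf1r, Jun, Fos, Trib1, Trib2, Spi1, Retnlg and Mmp9, where they fall outside that rule, and the GC comparison were chosen after values were seen. Alternatives were other scalings, filters, pseudocounts and lengths, DESeq2 1.42.0 dispersions and leaving out each library. R 4.3.3 and Python 3.11.15 were used.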

Additional observations from a re-analysis of the deposited data

Results flagged for a closer look

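Spike-in RNA, which no comparison above uses, was counted in all 3 libraries above the level that a count of 0 allows. ERCC counts came to 1.48%, 0.954% and 0.582% of gene counts in libraries 1, 2 and 3. Per 1000 ERCC counts there were 0.682, 2.43 and 4.13 Cebpa counts and 7.40, 13.5 and 19.6 Cebpg counts. The labels do not mention the spike-ins or the amount added, so these are not levels per cell.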

How the results depend on the processing

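Across scalings, filters and fits, 0 of the members tested passed the variability test, and 4 of 6 reached 1 CPM. Leaving out 1 library in turn left between 1 (without library 1) and 3 members past the chi-square test. With a pseudocount of 1, the members at least 2-fold lower in library 1 numbered 1 (Cebpa) in place of 2, since the log2 difference of Cebpd became -0.98. Over all genes, the variability test called 1 gene, against 16 without a minimum, 30 as DESeq2 outliers and between 9 and 33 with 1 library left out, and the chi-square test called 10707 genes against 6660 without library 1. Totals without Rn45s raised the median gene by 0.12 to 0.18 in log2 in each library. Mpo, Ctsg, Fos and Ngp were among the genes called under some of these. The log2 difference of Cebpb in library 1, not past 2-fold, changed sign to 0.03 without library 3, against -0.23. The order of levels changed with the longest transcript as length and without library 2, as given above. Length also matters, and with the RefSeq length of 2260 bases, tried after the data were seen, Cebpd was at 1.02 CPM per kb. Depth limits Cebpb and Cebpe to 9 to 32 counts per library. No paired analysis was possible because the libraries analysed form a single group.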
